A study of Homo sapiens with 21 samples.

Results

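Wild-type RUNX1 was mapped by chromatin immunoprecipitation and sequencing in cells that also make the G365R mutant of the protein, and in cells whose RUNX1 is all wild type. All cells were untreated clones of Jurkat, an established cell line of human T-cell leukaemia origin, in which short epitope tags mark the products of the RUNX1 gene. In the G365R clones TY1 marks the wild-type protein and HA marks the mutant, while in the WT clone both tags mark wild-type protein. The lists described here are the 3 made with the anti-TY1 antibody, chosen by their labels: 2 from G365R cells and 1 from WT cells, out of 14 deposited peak lists in all. Each list came from a single library of a single clone. The other lists are the 4 TY1 and 4 HA lists of clones with the truncating changes R232fs and Y287X, and the 3 HA lists of the G365R and WT clones. Their summits helped to set the borders of the regions. Beyond that, they were read at regions where at least 1 of the 3 TY1 lists described here had a summit. Because WT had 1 list, values are described and ranked. No p-value is given, since permuting 3 lists cannot give a p below 0.333, and a difference of the WT list cannot be told apart from a difference of its clone or library.

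RUNX1 binds DNA through its Runt domain, together with its partner CBFβ, at enhancers and promoters of blood cell genes, and is needed for the start of definitive blood formation and for T-cell development. In T-cell leukaemia lines such as Jurkat it sits at many enhancers next to other lineage factors. G365R replaces a glycine by an arginine outside the Runt domain, and the wild-type copy followed here has no such change, so the G365R lists show where the unaltered protein sits in cells that also make the mutant.

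The size and strength of the 3 lists were close to each other. On chromosomes 1 to 22 and X the G365R lists held 57378 peaks in clone 1 and 61793 in clone 2, against 59452 in the WT list. They covered 29.98 Mb and 30.3 Mb in the G365R clones, against 30.1 Mb in WT. The fold enrichment, the authors' ratio of fragments at the summit to the local background, had a median of 4.13 and 3.94 in G365R and 3.84 in WT, and reached 78.4 and 67.0 in G365R and 61.0 in WT. A fold of 10 or more was found at 6056 and 5995 peaks in G365R, against 5775 in WT. Fold and p-value together give the number of fragments at a summit, with a median of 66 and 50 in the G365R lists and 74 in the WT list. The commonest local background, the nearest measure of depth that a peak list holds, was 4.13 and 4.54 fragments in G365R and 5.88 in WT before scaling. The WT library was thus the deepest of the 3 by this measure.

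Around each summit a window of 100 bp on either side was taken, and overlapping windows of all 14 lists were merged into regions. The G365R lists then held 57244 and 61597 regions and the WT list 59333, with 82265 in at least 1 of the 3. Wild-type RUNX1 had a summit in all 3 lists at 40445 of these, which is 70.7% and 65.7% of the G365R lists and 68.2% of the WT list. The WT list was as near to either G365R clone as these were to each other. The share of regions in common, as a fraction of the regions in either list, was 0.627 between G365R clone 1 and WT and 0.622 between G365R clone 2 and WT, against 0.610 between the G365R clones.

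Agreement depended on how strong a site was. Among regions with a fold of 20 or more, 99.6% and 99.7% of those in the G365R clones were also in WT, and 99.9% and 100% of those in WT were in G365R clones 1 and 2. Between a fold of 10 and 20 the shares were 99.1% and 99.0% of G365R regions found in WT, and 99.2% and 99.3% of WT regions found in G365R. Between a fold of 3 and 5 they were 72.9% and 62.5% of G365R regions, against 62.8% and 71.2% of WT regions. Between the G365R clones in that band 75.9% of the clone 1 regions and 57.2% of the clone 2 regions were found again, a spread as wide as that between G365R and WT. At a fold of 20 or more, regions found in 1 list and neither of the others numbered 2 in G365R clone 1, 1 in G365R clone 2 and 0 in WT.

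**Figure D1:**
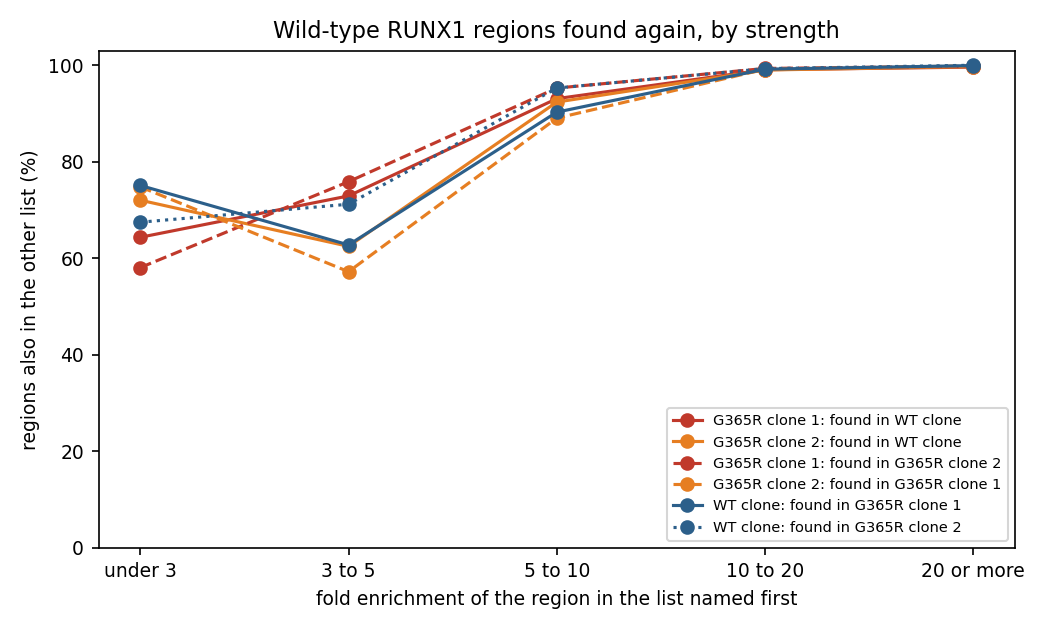
Share of the regions of 1 TY1 list that are also in another (vertical axis, %), by the fold enrichment of the region in the first list (horizontal axis). Red and orange lines start from G365R clones 1 and 2 and blue lines from WT, and above a fold of 10 every line lies between 99.0% and 100%.

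The 5 strongest shared sites show how alike the lists are at the top. They were ranked by the lowest of their 3 folds. At chr4:164816606-164816966 (hg19, counted from 1, as for all positions here) the fold was 61.3 and 58.0 in the G365R clones and 61.0 in WT. At chr1:152365266-152365554 it was 58.6 and 57.6 in G365R and 58.4 in WT. The 3 lists had nearly the same fold at both sites. The sites at chr6:148525166-148525490 (64.7 and 60.9 in G365R, 57.2 in WT) and chr9:83617272-83617498 (67.0 and 65.9 in G365R, 56.5 in WT) had both clones above WT in fold. Fragments, not corrected for depth, ran the other way there: 351 and 364 in G365R and 400 in WT at the chromosome 9 site, with the WT list the deeper one. Ranked within each list, the summit pileup at that site was at percentile 97.9 and 99.4 in G365R and 98.9 in WT. WT thus lay between the clones. At the chromosome 6 site it was at 97.4 and 98.8 in G365R and 99.0 in WT.

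At shared regions summits lay at nearly the same base. The median distance between the summits of 2 lists at a shared region was 24 bp for each G365R clone against WT and 25 bp between the G365R clones. At the 4210 regions with a fold of 10 or more in all 3 lists it was 16 and 15 bp against WT and 17 bp between the clones. A distance over 100 bp was found at 7.51% and 7.57% of shared regions against WT, and at 8.40% between the clones. No displacement beyond the spread between clones was thus seen at shared regions. Larger shifts cannot be seen this way, because summits too far apart for their windows to merge fall in separate regions.

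Regions in both G365R lists and not in WT numbered 4582, which is 8.00% and 7.44% of the G365R lists. Regions in WT and in neither G365R list numbered 8451, or 14.2% of the WT list. These counts follow from the rule as well as from binding, because a G365R region had to be found in both lists and a WT region in 1. The sites of 1 G365R clone alone numbered 7716 and 10634, in the same range as those of WT alone. One-sided sites were weak: the median fold was 3.68 and 3.43 at the G365R regions and 3.30 at the WT regions, against 4.78 and 4.52 in G365R and 4.42 in WT at sites in all 3 lists. Fragments at the summit had a median of 32 and 33 at the G365R regions and 30 at the WT regions. Of the G365R regions 15.1% were in none of the other 11 deposited lists, as were 41.8% of the WT regions and 2.00% of the regions in all 3. The rule affects these shares too. Among regions of 1 G365R clone alone the share was 26.9% in clone 1 and 47.7% in clone 2, and the WT share lay between them.

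Regions shared by WT and a single G365R clone differed between the clones in kind. The 4501 regions in clone 1 and WT had a median local background, as scaled by the caller, of 14.4 in clone 1 and 18.2 in WT. Their median fold was 3.03 in clone 1 and 2.79 in WT. Those in clone 2 and WT numbered 5936, with a background of 4.797 in clone 2 and 5.36 in WT and a fold of 3.79 in clone 2 and 3.75 in WT. The regions missing from clone 2 were therefore mainly in stretches of high local background, and those missing from clone 1 mainly in stretches of low background. In the TY1 list of the second Y287X clone 65.1% of the 4501 regions of clone 1 and WT had a summit, against 33.0% of the 5936 of clone 2 and WT. The shares were 48.6% and 24.9% in the TY1 list of the first Y287X clone, and 56.2% and 22.5% in that of the second R232fs clone. The TY1 list of the first R232fs clone did not show this contrast, with 24.99% and 24.49%.

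A summit missing from a list does not mean that the site is outside its peaks. Of the 4582 G365R regions, 415 (9.06%) had their summit inside a peak of the WT list whose own summit was elsewhere, and of the 8451 WT regions 785 (9.29%) lay inside a peak of a G365R list. Among the strong ones the share was larger. Of 24 G365R regions with a fold of 10 or more in both clones, 16 (66.7%) lay inside a WT peak, and of 15 WT regions with a fold of 10 or more, 9 lay inside a G365R peak. One pair shows this. The G365R summit at chr6:158255061-158255389 had a fold of 21.9 and 18.7, and its nearest WT summit was 503 bp away, within the same peak, at chr6:158254673-158254873 with a fold of 19.1 in WT. Both tags and the truncating clones used the G365R position, which was in 13 of the 14 lists, and the WT TY1 position was in that list alone. Another pair, 695 bp apart, was at chr11:11589486-11589837 (16.4 and 13.5 in G365R) and chr11:11590251-11590537 (16.1 in WT). Its HA lists were divided. The WT position was also in WT HA (9.30) and in the HA list of G365R clone 1 (7.67). The G365R position was in the HA list of G365R clone 2 (8.60).

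The HA lists gave a second reading of the one-sided regions. At the G365R regions 19.9% and 21.9% had a summit in the HA lists of G365R clones 1 and 2, where HA marks the mutant protein, and 13.97% had one in the HA list of the WT clone. At the WT regions the shares were 4.76% and 5.31% in the G365R HA lists and 16.2% in the WT HA list. At regions in all 3 TY1 lists they were 60.3% and 58.1% in G365R and 66.2% in WT. Both of these one-sided classes were thus found more often with the HA antibody in the cells where TY1 had found them. Regions of G365R clone 1 alone leaned the same way, with 7.58% in the HA list of that clone and 5.79% in WT HA. Those of clone 2 alone did not, with 8.10% in the HA list of that clone and 8.54% in WT HA. HA and TY1 libraries of 1 clone share their cells, and whether the caller set them against the same control library is not given in the sources used here, so they are not independent. The HA lists are also short, with 30609 and 30563 peaks in G365R and 37472 in WT. With every list cut to 30563 peaks the shares were 53.2% in G365R HA (mean of the clones) and 31.03% in WT HA at the G365R regions, and 20.7% in G365R HA and 46.2% in WT HA at the WT regions.

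**Figure D2:**
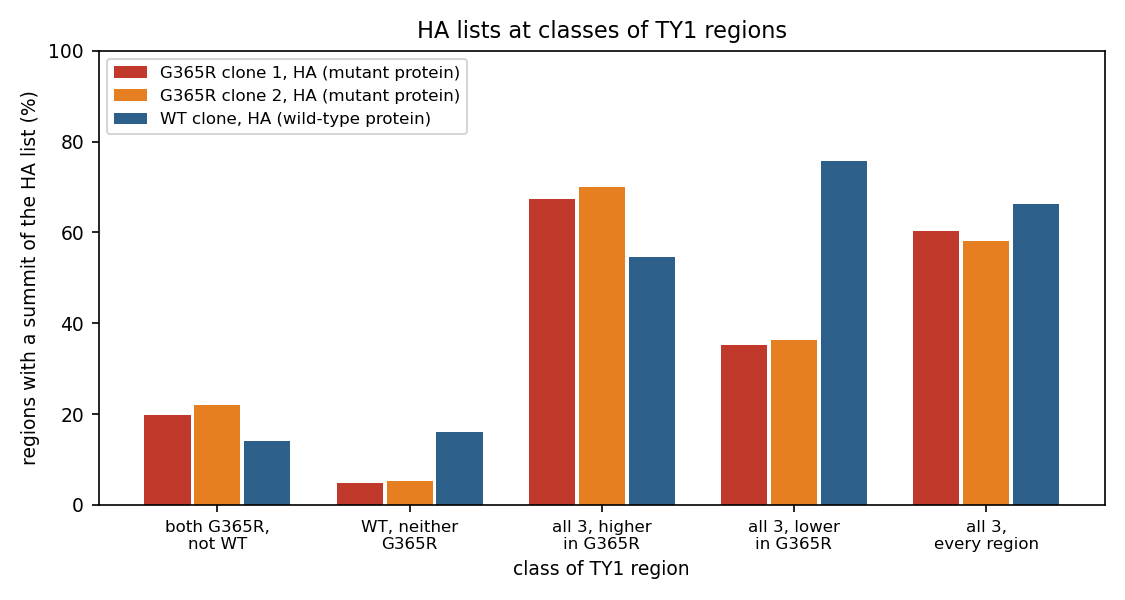
Share of TY1 regions of 5 classes (horizontal axis) with a summit in the HA list of G365R clone 1 (red), G365R clone 2 (orange) and the WT clone (blue), in % from 0. The G365R bars stand above the WT bar at regions in both G365R lists alone (19.9% and 21.9% against 13.97%), and below it at WT regions (4.76% and 5.31% against 16.2%).

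The strongest one-sided G365R sites formed a cluster. Of the 10 ranked first, 4 lay within chr21:36164557-36259424, a stretch of 94.9 kb, and it held 1 more such region further down the list, so that 5 are described. Human RUNX1 itself lies on the long arm of chromosome 21, and from general knowledge this stretch belongs to it. No hg19 annotation was at hand, so whether the summits fall on exons was not tested. Among the 16 regions of the stretch, 7 had a summit in every TY1 list described here and 5 in both G365R lists alone.

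At chr21:36252860-36253075 the fold was 33.9 and 31.1 in the G365R clones, with 177 and 171 fragments, and the WT TY1 list had no summit there and none within 6331 bp. At chr21:36171539-36171791 it was 34.5 and 28.3 in G365R, with no WT summit within 2317 bp. At chr21:36164557-36164780 it was 25.05 and 17.2 in G365R, with 456 and 437 fragments, and 456 was the highest count of any peak of the clone 1 list. The other two, at chr21:36231706-36231914 and chr21:36206641-36206881, had 15.1 and 13.3, and 6.89 and 7.40, in G365R. A sixth region, chr21:36259117-36259424, was in all 3 lists with a fold of 8.39 and 7.25 in G365R and 1.70 in WT, from 328 and 314 fragments in G365R and 88 in WT. The G365R clones were alike at all 6, and WT was lower or had no summit. The local background, as scaled by the caller, was 3.69 and 4.54 in G365R at chr21:36252860-36253075, the commonest value of each list. It was 3.69 and 5.11 at chr21:36171539-36171791 and 7 and 7.90 at chr21:36231706-36231914. It was higher at chr21:36164557-36164780, with 15.3 and 24.4 in G365R. At chr21:36259117-36259424 it was 34 and 42.4 in G365R and 42 in WT. What raised it there was not tested.

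The HA lists also had these 6 sites, and in the WT clone too. At chr21:36252860-36253075 the HA fold was 26.3 and 17.1 in the G365R clones and 6.98 in WT. At chr21:36171539-36171791 it was 30.9 and 19.5 in G365R and 9.66 in WT. None of the 5 sites that WT TY1 lacked had a summit in any of the 8 lists of R232fs and Y287X clones. Those clones did have a site between them, chr21:36180635-36180871, which was in all 14 lists, with a TY1 fold of 11.6 and 8.36 in G365R and 6.04 in WT. A summit in the HA and TY1 lists of the G365R clones and in the HA list of WT, but in no list of the other clones, set these 5 apart from their neighbours. What they stem from was not tested.

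**Figure D3:**
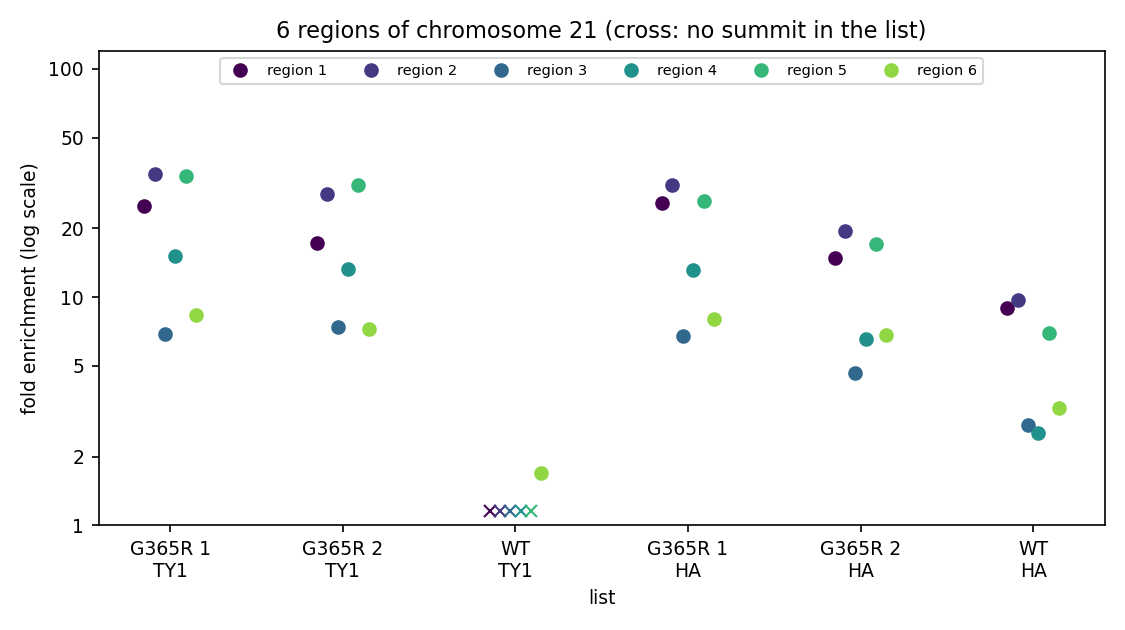
Fold enrichment (vertical axis, log scale) of the 6 regions of the chromosome 21 stretch, in order of position, in the TY1 and HA lists of G365R clones 1 and 2 and WT (horizontal axis). Circles are listed summits and crosses mark regions with no summit in that list. The WT TY1 list has 5 crosses and a circle at 1.70, while the G365R TY1 circles lie between 6.89 and 34.5.

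Away from chromosome 21 the one-sided G365R site with the highest fold outside every WT peak was chr10:123598537-123598770, with 12.8 and 14.6 in G365R from 66 and 80 fragments. It was in 12 of the 14 lists, and those without it were the TY1 and HA lists of the WT clone. Its nearest WT TY1 summit was 15733 bp away. The site at chr3:30686246-30686477 (14.5 and 13.7) lay inside a WT peak and was in 3 lists, the TY1 lists of both G365R clones and, with a fold of 8.41, the HA list of WT.

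On the WT side the strongest regions outside every G365R peak were seen with both tags in the WT clone. At chr13:32439620-32439832 the fold was 15.5 in WT TY1 and 11.6 in WT HA, with no summit in the other 12 lists and none of G365R TY1 within 18870 bp. At chr17:46225799-46226000 it was 13.6 in WT TY1 and 11.5 in WT HA, again in these lists alone. The site at chr5:137900892-137901262 had 13.4 in WT TY1 and 7.40 in WT HA, and was in 6 lists. Among them was the TY1 list of the first R232fs clone, with a fold of 12.5. The site at chrX:68940847-68941076 had 13.0 in WT TY1 and 12.3 in WT HA, and also a fold of 4.50 in the HA list of G365R clone 2. At chrX:4969867-4970260 the fold was 12.04 in WT TY1 and 6.98 in WT HA. That site was in 8 lists, with TY1 folds of 11.2 in the first R232fs clone and 11.06 and 11.4 in the Y287X clones. Of the 10 WT regions ranked first, 9 had a summit in WT HA and 2 in each G365R HA list. Of the 10 G365R regions ranked first, 8 and 9 had one in the G365R HA lists and 7 in WT HA.

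At the 40445 regions in all 3 lists the order of the sites by fold was compared. Each region was given its percentile within each list, and a region was counted as higher or lower in G365R when both clones were at least 20 percentile points from WT on the same side and the nearer clone was farther from WT than the clones were from each other. The median absolute difference was 7.52 and 6.79 points between the G365R clones and WT and 6.91 points between the clones. Differences of 20 points or more were found at 16.1% and 12.4% of regions against WT and 13.5% between the clones. Clone 1 thus stood a little farther from WT than from clone 2, and clone 2 a little nearer. Across regions, which are not independent, Spearman's rho was 0.869 and 0.897 against WT and 0.889 between the clones.

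**Figure D4:**
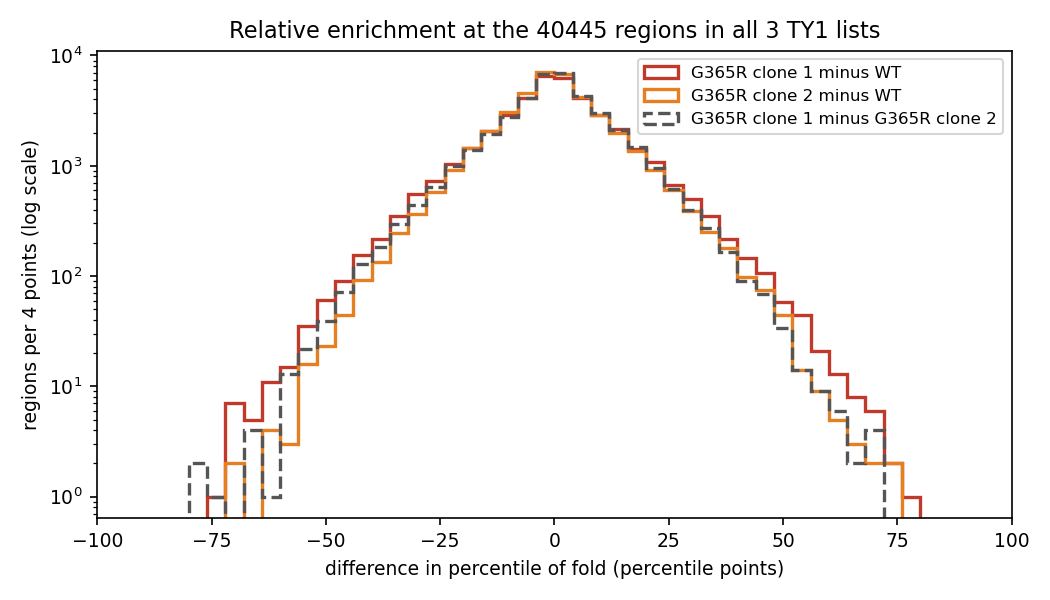
Number of regions (vertical axis, log scale) by the difference in percentile of fold (horizontal axis, percentile points) at the 40445 regions in all 3 TY1 lists. Red and orange are G365R clones 1 and 2 minus WT, and the grey dashed line is clone 1 minus clone 2, with median absolute differences of 7.52, 6.79 and 6.91 points.

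By this rule 1163 regions (2.88%) were higher and 871 (2.15%) lower in G365R. The regions nearest the limit of 20 points were a site counted as higher with percentiles of 85.9 and 86.8 in G365R and 65.9 in WT, and one not counted with 16 and 10.9 in G365R and 36.0 in WT. The higher set had a median fold of 6.15 and 5.78 in G365R and 3.35 in WT. In the lower set it was 3.72 and 3.43 in G365R and 5.49 in WT. Both sets had fewer fragments than usual, with medians of 52 and 52 in G365R and 49 in WT in the higher set, 44 and 43 in G365R and 78 in WT in the lower set, and 83 and 81 in G365R and 107 in WT over all shared regions.

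The local background moved with both sets. Its median was 5.93 and 7.39 in G365R and 12 in WT there, against 10 and 12.2 in G365R and 14 in WT over all shared regions. In the lower set it was 10.1 and 12.8 in G365R and 10.2 in WT, so WT alone fell below its median over all shared regions. When the summit pileup was ranked in place of the fold, 181 regions (0.448%) were higher and 153 (0.378%) lower in G365R. Of the regions called by fold, 101 of the higher and 61 of the lower were also called by pileup, and 0 were called the other way. The part of the background in these calls was not tested further.

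The named regions show both kinds. Among the 10 higher regions with the widest gap to WT, 2 were also called by pileup: the chromosome 21 region above and chr9:113869324-113869713, with a fold of 13.5 and 9.94 in G365R and 2.95 in WT from 70 and 58 fragments in G365R and 42 in WT. At chr10:80704712-80704998 the fold was 6.22 and 6.26 in G365R and 1.86 in WT. There the fragment counts, not corrected for depth, were 79 and 65 in G365R and 69 in WT. The background was 10.5 and 9.54 in G365R and 30 in WT. At chr12:2415223-2415508, in all 14 lists, the fold was 10.8 and 11.5 in G365R and 3.24 in WT, with 144 and 170 fragments in G365R and 137 in WT. These last sites differed in fold and less in fragments, and neither was called by pileup. Ranked within each list, the summit pileup was still higher in both G365R clones. Its percentile was 48.6 and 41.5 in G365R and 33.3 in WT at the chromosome 10 site. At the chromosome 12 site it was 67.5 and 81.6 in G365R and 59.3 in WT.

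Among the 10 lower regions 5 were also called by pileup. The widest gap of these was at chr3:17130458-17130743, with a fold of 3.74 and 3.27 in G365R and 10.9 in WT from 45 and 41 fragments in G365R and 105 in WT. At chr20:15120427-15120832 it was 3.45 and 3.07 in G365R and 8.34 in WT, from 17 and 16 fragments in G365R and 58 in WT. At chr1:222593785-222594300 it was 4.21 and 3.79 in G365R and 11.2 in WT, from 21 and 20 fragments in G365R and 78 in WT. WT stood above both clones in fold and in fragments at these 3 sites, and each had a summit in WT HA and in neither G365R HA list. The first of the 10, chr21:36014966-36015343, had a fold of 2.79 and 2.80 in G365R and 9.80 in WT, with 49 and 46 fragments in G365R and 81 in WT, and was not called by pileup.

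**Figure D5:**
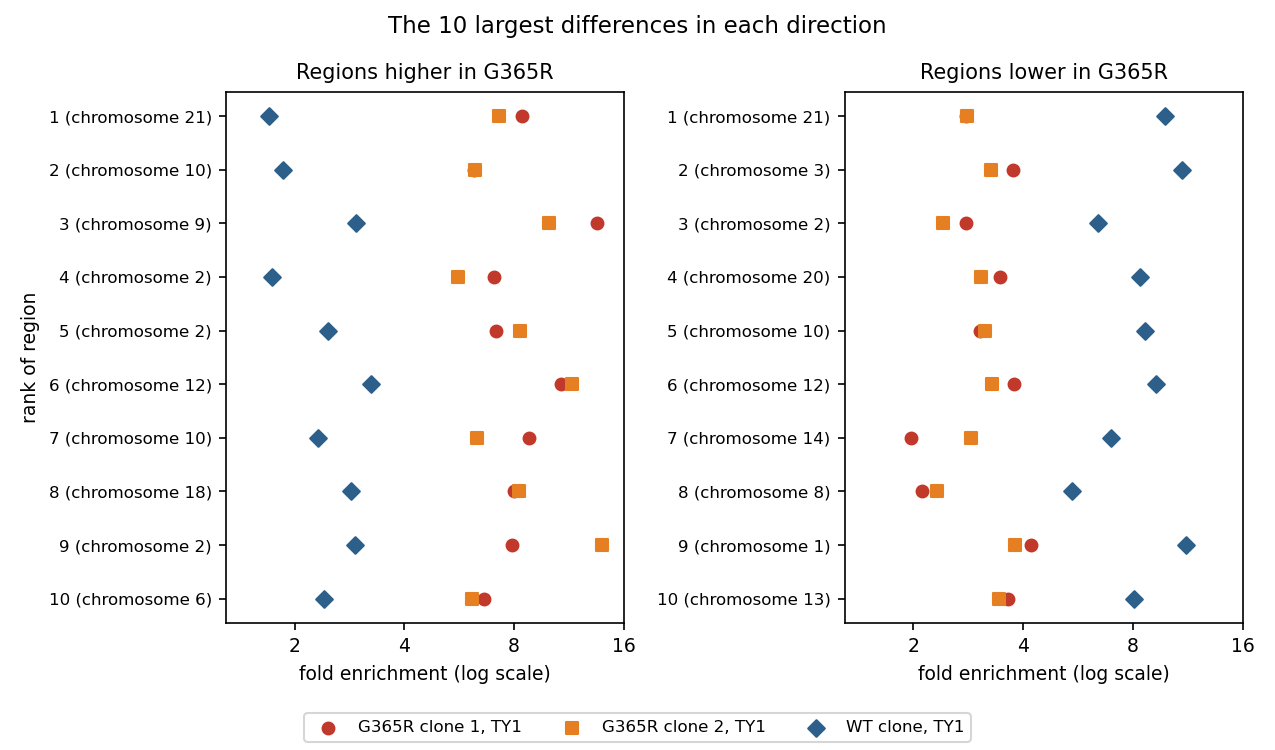
Fold enrichment (horizontal axis, log scale) of the 10 shared regions with the widest gap to WT in each direction, ranked from the top and labelled by chromosome. Red circles are G365R clone 1, orange squares G365R clone 2 and blue diamonds WT. The G365R marks lie together at one end of each line, as the rule required, and the WT mark at the other.

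In the HA lists the called regions leaned the same way as in TY1 by presence and by fold. A summit in the G365R HA lists was found at 67.4% and 70.1% of the higher set and in WT HA at 54.7%. For the lower set the shares were 35.1% and 36.3% in G365R HA and 75.8% in WT HA. In all 3 HA lists were 452 of the higher regions, and at 79.2% of them both G365R HA percentiles of fold were above that of WT HA, against 34.3% of all 17905 such regions. Of the lower set 176 regions were in all 3 HA lists, with both G365R HA percentiles below WT HA at 72.2%, against 34.8% of all. Ranked by fragments, both G365R HA lists were above WT HA at 64.6% of the 452 higher regions, against 37.7% of all. They were below it at 10.6%, against 34.7% of all. At the 176 lower regions both G365R HA lists were below WT HA by fragments at 36.4%, against 34.7% of all. They were above it at 41.5%, against 37.7% of all. These 176 regions thus did not lean below WT by HA fragments, unlike by HA fold. Left out of them were 271 lower regions (31.1%, against 8.74% of all shared regions) in WT HA and neither G365R HA list. Only 6 lower regions were in both G365R HA lists and not in WT HA. Fold contains the local background, and the background of a clone's HA and TY1 lists may have a common source, which was not tested.

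The TY1 lists of the truncating clones lay between. At the 555 higher regions that were in all 7 TY1 lists the median percentile was 65.3 and 64.0 in G365R, 62.4 and 55.8 in R232fs, 56.1 and 55.5 in Y287X, and 35.6 in WT. At the 336 lower regions it was 30.98 and 33.7 in G365R, 41.9 and 38.9 in R232fs, 40.6 and 43.7 in Y287X, and 60.2 in WT. The medians of the 4 truncating lists were nearer to G365R than to WT in the higher set, and likewise in the lower set. Region by region, their mean was nearer to the mean of G365R than to WT at 63.2% of the higher set and 62.2% of the lower set, against 57.5% of all 21702 such regions. Both sets were picked by the distance of the single WT list from agreeing G365R lists. That choice alone can place other lists nearer to G365R, so these values do not show whether WT differs from the mutant clones in general.

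By median difference no chromosome stood out strongly. On every chromosome the median difference in percentile between G365R and WT lay between -1.12 points, on X, and 0.507 points, on 20. On X it was -0.015 points in clone 1 and -1.72 points in clone 2, so it was mainly seen in 1 clone. WT regions absent from G365R were most frequent for the number of shared regions on chromosome 13, with 29.6 per 100 shared, and least on 19, with 11.5. Chromosome 13 also had 660 regions of G365R clone 2 alone and 216 of clone 1 alone, beside 1321 shared. On chromosome 14, with 1365 shared, these were 380 and 257. The G365R clones thus differed from each other on chromosome 13 too. There 4.01% of shared regions were called higher in G365R and 1.89% lower. Regions of both G365R clones absent from WT ranged from 7.84 per 100 shared on chromosome 19 to 15.6 on 18. Among 263 windows of 10 Mb with at least 50 shared regions the median difference ran from -2.67 points, between 40 and 50 Mb of X, to 4.46 points, between 20 and 30 Mb of chromosome 19. In the window of X the clones were at -0.867 and -3.25 points, and in that of chromosome 19 at 4.77 and 1.07 points, so the clones differed by more than 2 points in each. A window between 50 and 60 Mb of chromosome 7 had 2.64 and 2.41 points, alike in both.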

How the data were processed

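The submitters' processing notes name the build hg19 and the tools MACS2 2.2.7.1, Bowtie2 2.2.9 and CASAVA 1.8. Cells were fixed for 15 min and the fixation was stopped for 5 min, per the labels. The authors deposited 1 narrowPeak list per library, not pooled, giving each peak a score, its enrichment as a linear ratio (fold), and its p- and q-values as −log10. The lowest −log10 q was 1.31, 1.30 and 1.31 in the G365R and WT TY1 lists. Control libraries (7 samples) were not analysed here, and the control given to the caller is not given in the sources used here.

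Peaks off chromosomes 1 to 22 and X (1.80%, 1.89% and 2.03% of the 3 lists) were left out. Regions, percentiles and calls were made as described with the results. Pileup and local background were solved from the deposited fold and −log10 p under the caller's Poisson formula with 1 added to both, and checked on simulated peaks. Pileups of G365R clone 1 and WT were multiples of 0.892 and 0.819 and were divided by these to give fragments. Background is given as the caller scaled it, except where stated. Python 3.11.15, numpy 2.4.6, pandas 2.3.3, scipy 1.17.1 and matplotlib 3.10.9 were used.

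The regions named were the 10 strongest of each one-sided class, the 10 with the widest gap in each direction, the 5 strongest in all 3 lists, and extreme chromosomes and windows, each taken from the top. The other regions of the chromosome 21 stretch, the sites outside the other side's peaks and the chromosome 7 window were picked after their values were seen. The lists and regions were chosen with earlier results of these data known. An hg19 genome and its annotation were not used here, so no motif, gene or sequence is given.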

Additional observations from a re-analysis of the deposited data

How the results depend on the processing

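The counts of regions in all 3 lists, in both G365R lists alone and in WT alone stayed within 1.5 times under the other window sizes, whole peaks, regions from the 3 lists alone, equal lengths, a −log10 q of 5 and, for one-sided regions, summits outside every peak of the other side (4167 and 7666, chosen after seeing the data). With a fold of 5 or more they were 13336, 2142 and 2205. The shared fraction (clone 1 with WT, clone 2 with WT, clone 1 with clone 2) was 0.597, 0.585 and 0.575 at 50 bp, 0.660, 0.657 and 0.645 at 250 bp, 0.670, 0.662 and 0.654 for whole peaks, 0.615, 0.609 and 0.596 with regions from the 3 lists alone, 0.630, 0.632 and 0.615 at equal length, 0.650, 0.648 and 0.632 at a −log10 q of 5, and 0.613, 0.639 and 0.628 at a fold of 5. The pair of G365R clones was the lowest in all but the last, where it lay between the pairs with WT.

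Regions higher and lower in G365R numbered 3312 and 3006 at 10 points, 342 and 174 at 30 points, 181 and 153 by pileup, and 252 and 157 at regions in all 14 lists. They numbered 1409 and 1243 by −log10 p. HA shares at G365R regions were 19.1% (G365R HA) and 11.3% (WT HA) with whole peaks and 53.2% and 31.03% with all lists of equal length. At WT regions they were 3.75% in G365R HA with whole peaks, 17.5% in WT HA at 250 bp, and 20.7% (G365R HA) and 46.2% (WT HA) at equal length.

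Leaving out either G365R list, regions in G365R alone numbered 12298 to 15216 and in WT alone 12952 to 14387, with 3425 to 3474 higher and 3321 to 3546 lower. HA shares at G365R regions were then 10.9% to 11.9% in G365R HA and 8.84% to 10.2% in WT HA, and at WT regions 7.30% to 9.22% in G365R HA and 17.7% to 23.2% in WT HA. With a single G365R list there is no agreement between clones to require, and the calls then use the 20 points alone. In 5 Mb windows the median difference ran from -4.62 to 3.22 points. Without G365R clone 1 the regions in G365R alone (15216) outnumbered those in WT alone (12952), without clone 2 the lower regions (3546) outnumbered the higher (3474), and both orders are opposite to those with both clones. No paired analysis was possible because WT had 1 TY1 list and the results come from no test. Peak lists do not give depth, so a site missing from a list may be below its threshold.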
